A study of Mus musculus with 4 samples.

Results

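The 7 genes described here encode the proteins that copy DNA methylation at replication, namely Dnmt1, Uhrf1 and Hells, and those that remove it by oxidation and base excision, namely Tet1, Tet2, Tet3 and Tdg. They were taken by gene symbol from a table of 23235 symbols, and all 7 were found. RNA was read by sequencing of rRNA-depleted total RNA in 4 mouse libraries of strain 129S4/SvJae, 1 library per group. WT_ES and DKO_ES were embryonic stem (ES) cells at day 0, grown with serum and leukemia inhibitory factor (LIF), of wild-type genotype on the J1 background or with both Dnmt3a and Dnmt3b knocked out (DNMT3A/B DKO). WT_NP and DKO_NP were neural progenitor cells (NPCs) derived from each at day 6, after 4 days as embryoid bodies and 2 days with retinoic acid. Earlier passages had been kept on feeder cells that were later removed. The labels do not say how many clones the knockout line represents, and they name no sort of the day 6 cultures. All groups hold 1 library, so no difference below has a replicate check and no significance test was run.

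DNA methylation on CpG sites is lost passively when cells divide unless it is copied. Uhrf1 binds sites methylated on 1 strand only at the replication fork and recruits Dnmt1, the methyltransferase that fills in the new strand, while Hells, a chromatin remodeller of the SNF2 family, is needed for normal methylation of repeats and other silent regions. Tet1, Tet2 and Tet3 are dioxygenases that oxidise methylcytosine step by step, and the DNA glycosylase Tdg cuts out the most oxidised forms so that base excision repair can restore an unmodified cytosine. In mouse ES cells Tet1 and Tet2 are the family members known to predominate, and Tet3 is best known from the egg, the zygote and neural tissue. Dnmt3a and Dnmt3b, the genes targeted in the knockout, encode the enzymes of de novo methylation.

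Values are FPKM (read density corrected for gene length and library depth), which compare genes within a library, and median-scaled FPKM, which divide each library by a factor set so that the median gene is level between libraries. The factors ran from 0.671 in WT_NP to 1.32 in WT_ES. Before scaling, the log2 ratio of the median gene was -0.82 for WT_NP against WT_ES, -0.43 for DKO_NP against DKO_ES and 0.39 for DKO_NP against WT_NP, and scaling takes these shifts out. Folds below are ratios of median-scaled FPKM, and log2 ratios are of median-scaled FPKM with 1 added, which understates differences of low genes. The 95% intervals beside folds are exact (Clopper-Pearson) limits from approximate read numbers and cover counting error only. Per library, 12756 to 13128 symbols reached 1 FPKM and the reads behind the FPKM denominator were about 13.6 to 35.8 M. The targeted genes had fewer reads in the knockout on both days: Dnmt3a had 35.3 FPKM in WT_ES against 12.3 in DKO_ES, and 17.2 in WT_NP against 4.14 in DKO_NP. Dnmt3b had 140.3 against 13.9 in the ES cell and 9.98 against 5.22 in the NPC libraries. All 10 ES cell markers were at least 2-fold lower at day 6 in both genotypes, and neural progenitor markers were at least 2-fold higher (8 of 9 in the wild type, or 5 as deposited, and 10 of 10 in the knockout). The NPC libraries differed in their marker content. Summed median-scaled FPKM of the 10 ES cell genes was 147 in WT_NP and 456 in DKO_NP, and that of the 10 neural progenitor genes 141 and 282. WT_NP also carried markers of other lineages. Summed median-scaled FPKM of 5 red blood cell genes was 1142 in WT_NP and 82.1 in DKO_NP, and of 9 endoderm genes 193 and 33.4, with 3 of 5 and 6 of 8 compared genes at least 2-fold lower in DKO_NP. The ES cell libraries had sums of at most 1.94 and 5.30 for these lists, with Hba-x, Hbb-y and Ttr listed at 0 in both. The sum of 8 mesoderm genes was 107 in WT_NP and 24.8 in DKO_NP, beside 31.1 in WT_ES and 27.6 in DKO_ES. Pecam1 alone made up 28.8 of the WT_ES sum and 23.6 of the DKO_ES sum, against 7.58 in WT_NP and 9.40 in DKO_NP. In DKO_NP against DKO_ES 3 of 5 compared mesoderm genes were at least 2-fold higher and 1, Pecam1, was lower. The sum of 10 fibroblast genes, as a check for feeder cells, was 233 in WT_NP and 89.2 in DKO_NP, beside 217 in WT_ES and 153 in DKO_ES. Fn1 alone made up 156 of the WT_ES sum and 136 of the DKO_ES sum, so the sum is a weak check. Col1a1 was at 6.77 in WT_ES against 0.852 in DKO_ES, and 4 of 7 compared fibroblast genes were at least 2-fold lower in DKO_ES. In such bulk samples fewer cells of a type and less RNA per cell cannot be told apart.

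Counted at 2-fold, 3 of the 7 genes differed with differentiation of wild-type cells, 3 with differentiation of knockout cells, 1 between the ES cell libraries and none between the NPC libraries. In WT_NP against WT_ES, Tet3 was higher and Hells and Tet1 were lower, where 27.5% of 14086 genes were called, 16.2% higher and 11.3% lower. In DKO_NP against DKO_ES, Tet3 was higher and Tet1 and Tet2 were lower, where 23% of 14050 genes were called, 11.8% higher and 11.2% lower. In DKO_ES against WT_ES only Tdg was lower, where 3.71% of 13596 genes were called, 2.56% higher and 1.15% lower. In DKO_NP against WT_NP no member reached 2-fold after scaling, where 12.8% of 13601 genes were called, 4.76% higher and 7.99% lower; as deposited, Dnmt1, Uhrf1 and Hells were past 2-fold. The split of all called genes depends on the scaling: in WT_NP against WT_ES 2287 were higher and 1592 lower, against 901 and 5876 as deposited and 3067 and 1089 with housekeeping scaling. In DKO_NP against DKO_ES 1656 and 1570 became 1102 and 3067 as deposited and 2101 and 1181 with housekeeping scaling. In DKO_NP against WT_NP 648 and 1087 became 1382 and 531, or 566 and 1383. The median log2 ratio of the 7 genes was -0.87, -0.44, -0.01 and 0.13 in these comparisons in turn, beside 0.01, -0.03, 0.01 and 0.01 over all genes compared. The comparisons share libraries, so their values for a gene are not independent of each other.

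**Figure D1:**
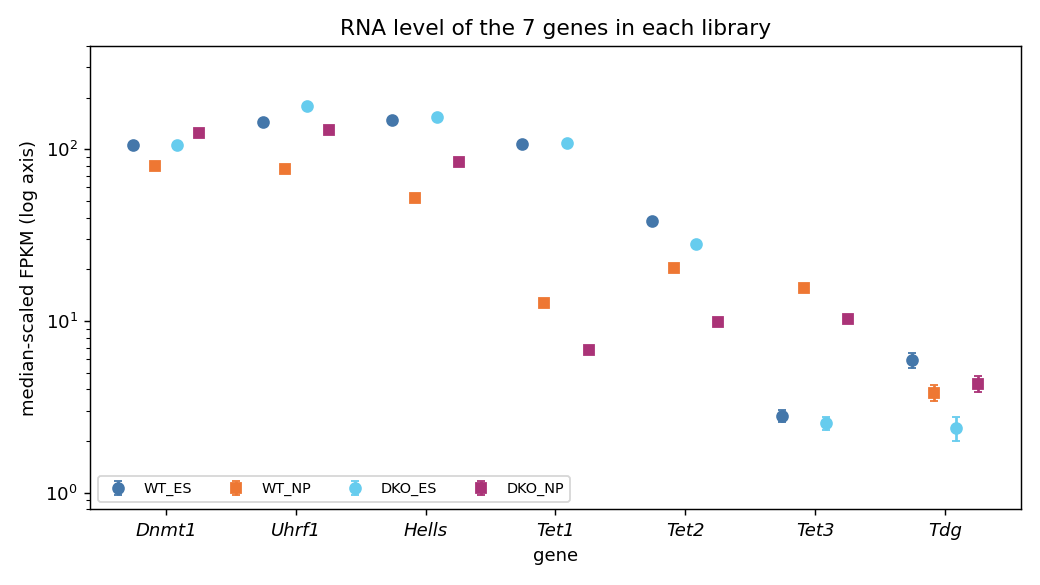
Median-scaled FPKM (log axis) of the 7 genes in each of the 4 libraries; circles are ES cell and squares are NPC libraries, and bars are 95% counting limits where wider than the symbol. Tet1 is at 107 and 109 in the ES cell libraries, 12.7 in WT_NP and 6.77 in DKO_NP, while Tet3 is higher in both NPC libraries than in either ES cell library.

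**Figure D2:**
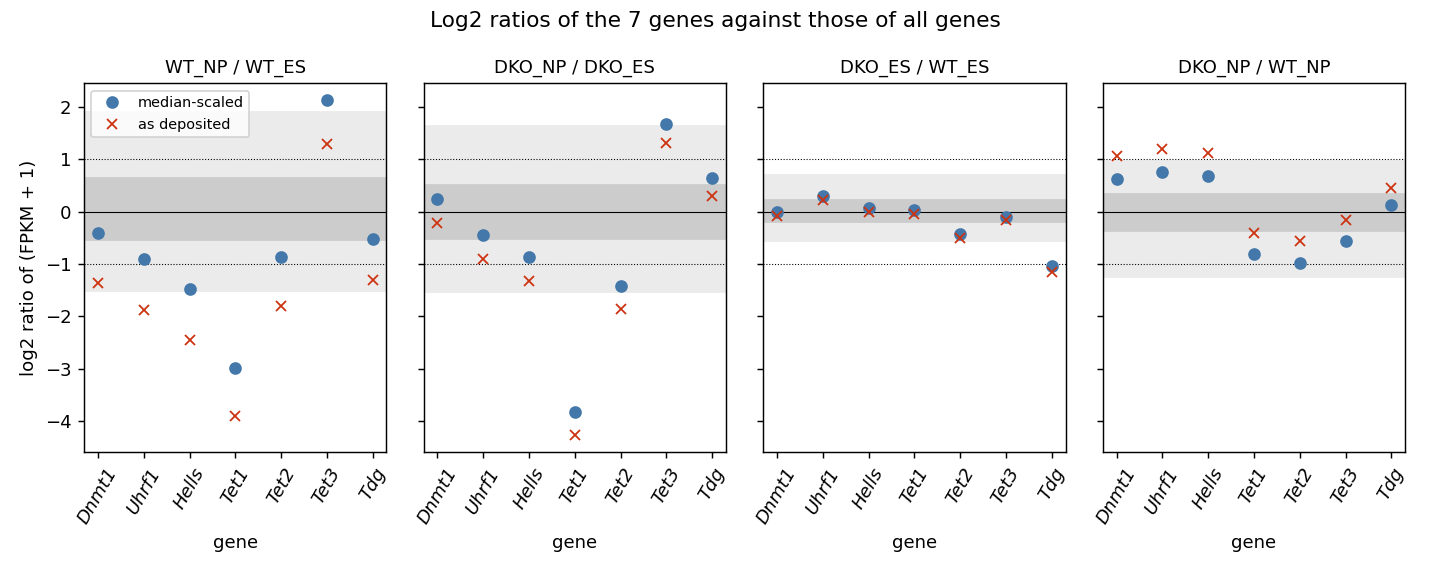
Log2 ratios of the 7 genes in the 4 comparisons, after median scaling (circles) and as deposited (crosses); the dark band holds the middle 50% and the light band the middle 90% of all genes compared after scaling, and dotted lines mark 2-fold. Tet1 lies far below the light band in both differentiation comparisons, and Dnmt1, Uhrf1 and Hells lie above 0 together in DKO_NP against WT_NP.

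The maintenance genes were among the more abundant transcripts in every library. Dnmt1 stood at 140.2 FPKM in WT_ES against 53.9 in WT_NP, with 132.4 in DKO_ES against 113 in DKO_NP. Uhrf1 stood at 190.2, 51.2, 222 and 118 FPKM in the same order of libraries. Hells stood at 194, 34.9, 193.5 and 76.5 FPKM. WT_NP held the lowest level of all 3 genes, as deposited and after scaling, and between 93.1% and 97.5% of all symbols stood lower than each of them in each library. In WT_ES, Hells and Uhrf1 were the highest of the 7 members and their counting intervals overlapped. In WT_NP, Dnmt1 was the highest of the 7, and in both knockout libraries Uhrf1 was.

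The maintenance genes differed in how much of their ES cell level remained at day 6. Hells, the remodeller, was 2.83-fold lower in WT_NP than in WT_ES (2.75 to 2.91) and 1.84-fold lower in DKO_NP than in DKO_ES (1.79 to 1.88). Uhrf1, the reader that recruits Dnmt1, was 1.89-fold (1.83 to 1.95) and 1.36-fold (1.33 to 1.40) lower. Dnmt1 itself was 1.32-fold lower in the wild-type pair (1.29 to 1.36) and 1.18-fold higher in the knockout pair (1.15 to 1.21), a direction that turned without scaling (log2 ratio 0.24 after scaling, -0.22 as deposited). The order Hells, Uhrf1, Dnmt1, from most to least reduced, was the same in both genotypes, and no scaling between libraries can change it. Within a library the Hells to Dnmt1 ratio was 1.38 in WT_ES (1.35 to 1.42) and 0.647 in WT_NP (0.628 to 0.666), and 1.46 in DKO_ES and 0.675 in DKO_NP (0.659 to 0.691). The Uhrf1 to Dnmt1 ratio was 1.36 in WT_ES and 0.949 in WT_NP, and 1.68 in DKO_ES and 1.04 in DKO_NP. Both ratios were thus lower at day 6 in each genotype.

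Without Dnmt3a and Dnmt3b, the maintenance genes stood near their wild-type level in ES cells and above it in NPCs. Between the ES cell libraries Dnmt1 differed by less than its counting interval (fold 0.995, 0.969 to 1.02). Uhrf1 was 1.23-fold higher in DKO_ES (1.20 to 1.27), and Hells was 1.05-fold higher after scaling (1.03 to 1.07) but level as deposited (log2 ratio -0.0048). Between the NPC libraries Dnmt1 was 1.55-fold (1.52 to 1.59), Uhrf1 1.71-fold (1.66 to 1.76) and Hells 1.62-fold (1.57 to 1.67) higher in DKO_NP. These 3 folds were close to each other, and their log2 ratios of 0.63, 0.77 and 0.69 stood above those of 89.4%, 92.5% and 90.9% of all genes compared. Scaling by housekeeping genes gave 0.48, 0.62 and 0.54, and the deposited values 1.06, 1.19 and 1.11. The difference of the differentiation log2 ratios, DKO minus WT, was 0.64 for Dnmt1, 0.47 for Uhrf1 and 0.62 for Hells, and 1.14, 0.97 and 1.12 as deposited. It was not tested. After scaling, 13.1% of 14713 genes had a difference of at least 1 in size, 4.31% upward. No such share was taken for the deposited values.

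Proliferation genes were read beside the maintenance genes. Of 22 S phase genes, which act in DNA replication as Dnmt1 and Uhrf1 do, 20 had a log2 ratio below 0 in WT_NP against WT_ES with 2 at least 2-fold lower, and the median was -0.60; as deposited 20 were at least 2-fold lower. In DKO_NP against WT_NP 18 of the 22 lay above 0 and 1 was at least 2-fold higher, with a median of 0.43. The cyclin gene Ccne1, which drives entry into S phase, was that gene, with 14.8 FPKM in WT_NP against 50.02 in DKO_NP. Of 12 genes of G2 and mitosis, 11 lay below 0 in WT_NP against WT_ES (median -0.78, 4 at least 2-fold lower; -1.74 and 11 as deposited) and 11 above 0 in DKO_NP against WT_NP (median 0.28, none at 2-fold). In DKO_NP against DKO_ES 19 of the 22 S phase genes (median -0.32) and 10 of the 12 genes of G2 and mitosis (median -0.50) lay below 0, as did Uhrf1 and Hells, while Dnmt1 lay above 0 after scaling and below 0 as deposited. With housekeeping scaling the S phase medians were -0.33 in WT_NP against WT_ES, -0.10 in DKO_NP against DKO_ES and 0.29 in DKO_NP against WT_NP. Those of G2 and mitosis were -0.50, -0.28 and 0.14. Of the 15 housekeeping genes themselves, after median scaling, 12 lay below 0 in each differentiation comparison and 11 above 0 in DKO_NP against WT_NP. Between the ES cell libraries the medians of both lists were 0.15 and -0.04 after median scaling. Dnmt1, Uhrf1 and Hells each stood above both medians in DKO_NP against WT_NP; in WT_NP against WT_ES Hells and Uhrf1 stood below both medians and Dnmt1 above. Summed median-scaled FPKM of the 22 S phase genes was 2102 in WT_ES against 1309 in WT_NP, with 2245 in DKO_ES against 1748 in DKO_NP. The part of cell proliferation, and of the cell mixture given above, in the levels of the maintenance genes was not tested.

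**Figure D3:**
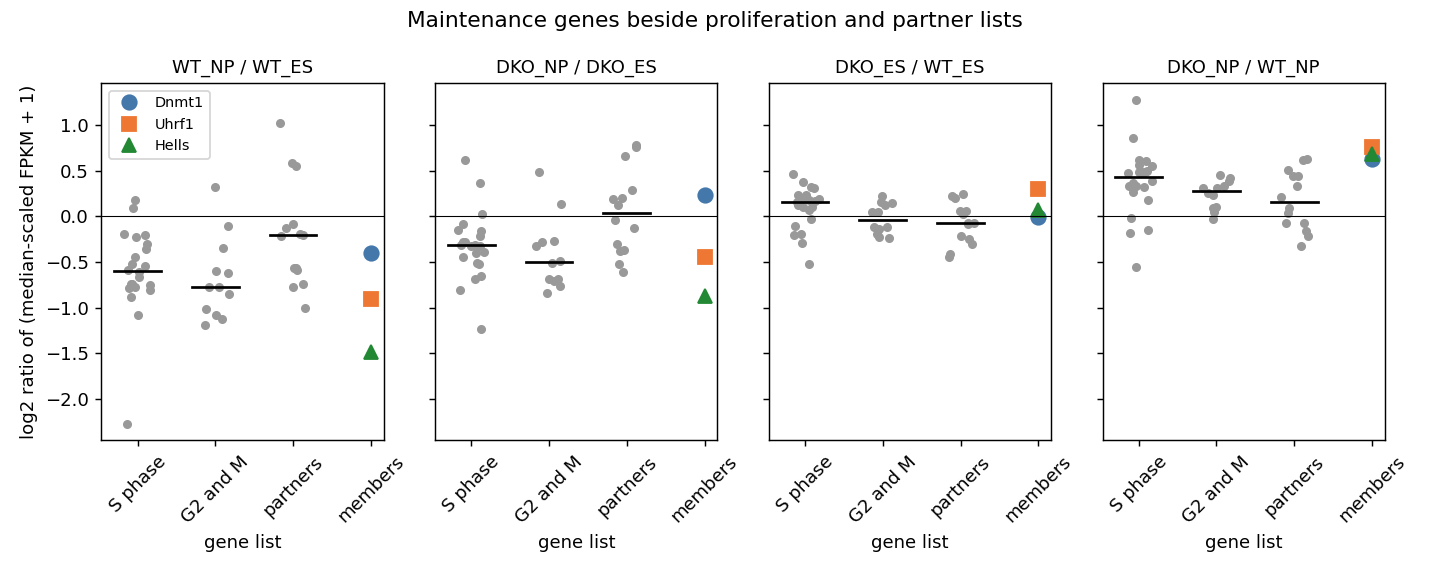
Log2 ratios (median-scaled FPKM with 1 added) of S phase genes, genes of G2 and mitosis and partners of maintenance methylation (grey points, 1 per gene, with the list median as a line) beside Dnmt1, Uhrf1 and Hells, in the 4 comparisons. In DKO_NP against WT_NP the 3 maintenance genes lie between 0.63 and 0.77, above the S phase median of 0.43.

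Among 14 partners of replication-coupled maintenance, Uhrf2 was past 2-fold upward and Usp7 downward in WT_NP against WT_ES (median -0.21 after scaling, -1.15 as deposited and 0.05 with housekeeping scaling), and 11 were at least 2-fold lower as deposited. None reached 2-fold in the other 3 comparisons after scaling, and 1, 0 and 2 did as deposited. Usp7, the deubiquitinase that stabilises Dnmt1 and Uhrf1, stood at 153.7 FPKM in WT_ES against 38.6 in WT_NP, with 148.5 in DKO_ES against 74.98 in DKO_NP. Pcna, the sliding clamp of the replication fork, stood at 447, 154, 488 and 323 FPKM. Like the maintenance genes, both were lowest in WT_NP, as deposited and after scaling. After scaling Cdca7, Lig1, Hdac2 and Ahcy were also lowest there, and the other partners were not. Among those, Uhrf2, Cdca7l and Ehmt1 were highest in WT_NP.

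Promoter sequences of the 7 genes were searched for words of a motif that was chosen after the levels were seen. Promoters of S phase genes were not examined as a set. Whether the words bear on the levels was not tested. RefSeq (GRCm38.p6) windows from 250 bases before to 50 after each annotated start were found for all 7 genes, 10 windows in all. They were searched on both strands for 4 words of the motif of E2F factors, which drive S phase genes: TTTCCCGC, TTTCGCGC, TTTGCCGC and TTTGGCGC. The words can overlap each other. Of all 32851 windows of this length 2.26% held at least 1 such word, as did 5.06% of the 3837 windows with at least 30 CG dinucleotides. Capitals mark the words found, in the third of 3 annotated starts of Dnmt1 (chr9:20952574-20952873, minus strand), the second of 2 of Uhrf1 (chr17:56304063-56304362, plus strand) and the single start of Hells (chr19:38930740-38931039, plus strand).
Dnmt1: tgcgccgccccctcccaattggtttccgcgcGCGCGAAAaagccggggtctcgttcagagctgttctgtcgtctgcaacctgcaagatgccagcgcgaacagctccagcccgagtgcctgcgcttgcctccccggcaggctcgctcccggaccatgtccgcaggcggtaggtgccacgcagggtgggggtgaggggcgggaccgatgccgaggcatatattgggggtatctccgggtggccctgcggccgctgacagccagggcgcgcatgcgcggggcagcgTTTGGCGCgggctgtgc
Uhrf1: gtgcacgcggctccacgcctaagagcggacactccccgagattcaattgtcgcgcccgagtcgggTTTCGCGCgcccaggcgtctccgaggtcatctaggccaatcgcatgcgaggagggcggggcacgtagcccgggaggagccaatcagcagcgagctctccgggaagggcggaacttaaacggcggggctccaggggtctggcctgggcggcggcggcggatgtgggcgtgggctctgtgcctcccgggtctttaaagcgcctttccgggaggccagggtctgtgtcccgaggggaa
Hells: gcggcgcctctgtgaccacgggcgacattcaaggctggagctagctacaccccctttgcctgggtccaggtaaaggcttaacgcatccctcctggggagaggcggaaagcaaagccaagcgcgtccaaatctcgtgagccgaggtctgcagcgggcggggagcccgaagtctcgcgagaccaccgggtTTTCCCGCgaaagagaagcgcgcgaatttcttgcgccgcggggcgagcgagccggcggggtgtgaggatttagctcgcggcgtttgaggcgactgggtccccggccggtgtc
The Dnmt1 window held GCGCGAAA, which is TTTCGCGC on the other strand, starting at position -219 and TTTGGCGC at 33, the Uhrf1 window TTTCGCGC at -185 and the Hells window TTTCCCGC at -62, counted from the start site. These windows held 33, 33 and 34 CG dinucleotides, against a median of 7 over all windows. On the minus strand the Dnmt1 window shown lies wholly downstream of the window of the second start (chr9:20952930-20953229). Its word at -219 is therefore downstream of that start and not upstream of every Dnmt1 start. The other 2 windows of Dnmt1 and the other window of Uhrf1 held none of the words. The windows of Tet1, Tet2, Tet3 and Tdg held none either, with 17, 57, 22 and 26 CG dinucleotides. The window of Tet1 (chr10:62887275-62887574, minus strand) is also given, without capitals.
Tet1: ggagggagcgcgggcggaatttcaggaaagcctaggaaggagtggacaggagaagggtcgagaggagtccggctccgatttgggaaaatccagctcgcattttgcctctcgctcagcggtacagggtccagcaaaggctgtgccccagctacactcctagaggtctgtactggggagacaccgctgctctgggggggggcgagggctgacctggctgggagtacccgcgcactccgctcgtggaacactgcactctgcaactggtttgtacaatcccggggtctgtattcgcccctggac
A match describes letters in the window and not binding of a factor, and an absent word says only that these letters are not in it.

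The order of the Tet genes differed between ES cells and NPCs. Tet1 stood at 141 FPKM in WT_ES against 8.52 in WT_NP, with 136.9 in DKO_ES against 6.15 in DKO_NP, so that both NPC libraries lay far below both ES cell libraries. Tet2 stood at 50.5, 13.7, 35.3 and 8.95 FPKM, also lower in both NPC libraries than in both ES cell libraries, but with a smaller gap. After scaling Tet2 stood at 38.3, 20.4, 28.2 and 9.86. Tet3 stood at 3.69, 10.5, 3.18 and 9.32 FPKM and was the only member of the 7 that was higher in both NPC libraries than in both ES cell libraries, as deposited and after scaling. Its level in the ES cell libraries was above that of 54.2% and 52.8% of all symbols, and in the NPC libraries above that of 75.6% and 68.9%. For Tet1 these shares were 96.0% in both ES cell libraries, 71.5% in WT_NP and 62.5% in DKO_NP.

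After scaling, Tet1 was 8.44-fold lower in WT_NP than in WT_ES (8.18 to 8.72) and 16.1-fold lower in DKO_NP than in DKO_ES (15.5 to 16.9). Of all genes compared, 0.994% and 0.406% had a lower log2 ratio. Tet2 was 1.87-fold (1.80 to 1.95) and 2.86-fold (2.72 to 3.02) lower. Tet3 was 5.57-fold (5.10 to 6.11) and 4.04-fold (3.67 to 4.44) higher, a ratio above that of 96.1% and 95.3% of genes. Each of the 3 genes thus ended lower, relative to its own ES cell level, in the knockout than in the wild type. The difference of the differentiation log2 ratios, DKO minus WT, was -0.85 for Tet1, -0.55 for Tet2 and -0.46 for Tet3, where 8.81% of all genes had a difference of -1 or less. As deposited these differences were -0.37, -0.06 and 0.01, so for Tet2 and Tet3 they rest on the scaling.

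Shares of the family within a library do not depend on scaling. Of the summed FPKM of Tet1, Tet2 and Tet3, Tet1 made up 72.3% in WT_ES and 26.1% in WT_NP, and in the knockout 78.1% of DKO_ES and 25.2% of DKO_NP. Tet2 made up 25.8% and 41.9% in the wild type and 20.1% and 36.6% in the knockout. Tet3 made up 1.89% in WT_ES against 32.0% in WT_NP, and 1.82% in DKO_ES against 38.2% in DKO_NP. By FPKM the highest member was therefore Tet1 in both ES cell libraries, Tet2 in WT_NP, and Tet3 with Tet2 in DKO_NP. In DKO_NP the Tet3 to Tet2 ratio of 1.04 had an interval holding 1 (0.982 to 1.10). FPKM rests on the gene lengths used, and the order in the NPC libraries by approximate reads is given below. The summed family level, after scaling, was 148.2 in WT_ES against 48.7 in WT_NP, with 140.1 in DKO_ES against 26.9 in DKO_NP.

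**Figure D4:**
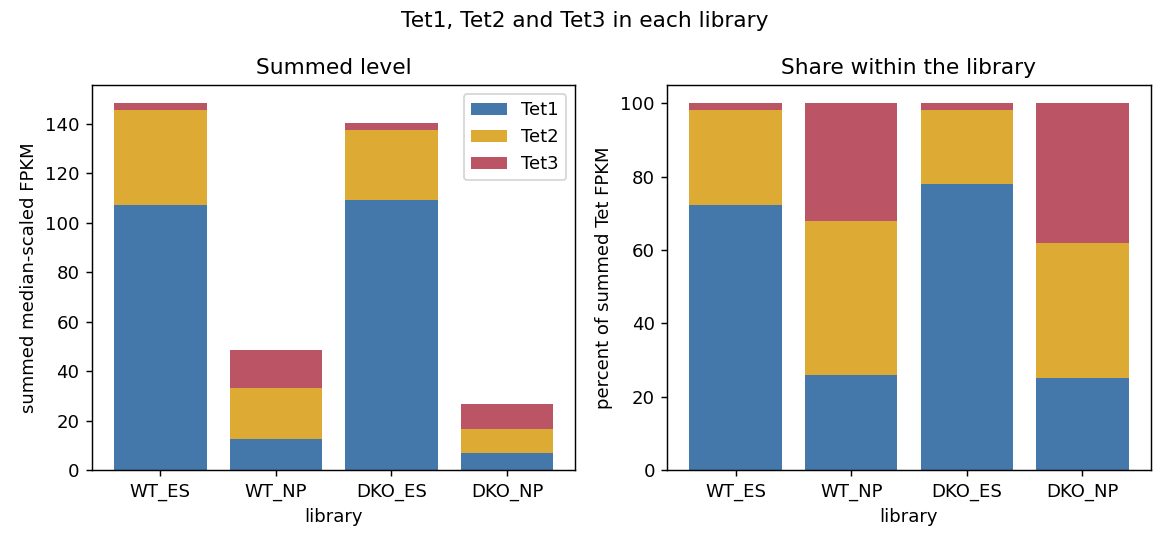
Summed median-scaled FPKM of Tet1, Tet2 and Tet3 (left) and each gene's percent of the family's FPKM within the library (right), 1 bar per library. Tet1 takes 72.3% and 78.1% of the 2 ES cell libraries, and the 3 genes are nearer to equal in the NPC libraries.

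Dnmt1 was compared with Tet1 within each library. Dnmt1 and Tet1 stood at nearly the same FPKM in ES cells, with a Dnmt1 to Tet1 ratio of 0.992 in WT_ES (0.971 to 1.01) and 0.968 in DKO_ES (0.947 to 0.989). The Dnmt1 to Tet1 ratio was 6.33 in WT_NP (6.11 to 6.55) and 18.4 in DKO_NP (17.6 to 19.3). This holds for that pair and not for the other Tet genes alike: against Tet3, Dnmt1 stood at 140.2 to 3.69 FPKM in WT_ES but 53.9 to 10.5 in WT_NP. The ratio needs no scaling, and its intervals in the NPC libraries lie apart, though no replicate shows how far such a ratio varies between cultures.

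Without Dnmt3a and Dnmt3b, Tet1 and Tet3 differed little in ES cells and all Tet genes stood lower in NPCs. Between the ES cell libraries the fold was 1.02 for Tet1 (at most 1.04; log2 ratio 0.029 after scaling and -0.046 as deposited) and 0.909 for Tet3 (0.806 to 1.03). Tet2 was 1.36-fold lower in DKO_ES (1.31 to 1.41), and 8.63% of genes had a lower log2 ratio. Fibroblast markers, which feeder cells would carry, were also lower in DKO_ES, with 4 of 7 compared genes at least 2-fold lower and a median log2 ratio of -1.40, and their part in the Tet2 and other ES cell differences was not tested. Between the NPC libraries Tet1 was 1.87-fold (1.78 to 1.97), Tet2 2.07-fold (1.97 to 2.19) and Tet3 1.52-fold (1.44 to 1.60) lower in DKO_NP. The Tet2 value passes 2-fold as a plain ratio but not on the scale with 1 added, where it was -0.98. As deposited the log2 ratios were -0.41, -0.56 and -0.15, in the same direction and smaller. DKO_NP and WT_NP also differ in their cell mixture, as the marker sums above show, and the part of that in the Tet levels was not tested.

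Regulators and cofactors of the Tet enzymes included several that were lower at day 6. Of 15 genes in this list, 7 were at least 2-fold lower and 1 higher in WT_NP against WT_ES, beside 11.3% and 16.2% of all genes. The median log2 ratio was -0.80, or -1.73 with 10 lower as deposited and -0.53 with housekeeping scaling. In DKO_NP against DKO_ES 6 of 14 were lower, beside 11.2% of all genes. The median was -0.94, or -1.37 with 9 lower as deposited and -0.73 with housekeeping scaling. The lower genes included pluripotency factors known as Tet partners or regulators, and of these Nanog is also among the ES cell markers counted above. Nanog stood at 254 FPKM in WT_ES against 5.74 in WT_NP, with 308 in DKO_ES against 19.6 in DKO_NP, and Prdm14 at 16.8, 0.293, 12.7 and 1.51. Idh3a, a subunit of the mitochondrial enzyme that makes the Tet cosubstrate 2-oxoglutarate, stood at 70.5, 13.2, 81.4 and 27.7 FPKM. After scaling its log2 ratio was -1.40 in WT_NP against WT_ES and -1.07 in DKO_NP against DKO_ES. The other Idh genes of the list did not reach 2-fold in these comparisons, at -0.21 and 0.13 for Idh1 and 0.34 and 0.54 for Idh2. Ogt, the glycosyltransferase that binds Tet proteins, had a similar deposited level in all 4 libraries, although after scaling its log2 ratio was 0.91 in WT_NP against WT_ES, at 58.4, 56.6, 52.2 and 56.0 FPKM. Cxxc4, which encodes a CXXC protein that binds Tet2, was the gene at least 2-fold higher in WT_NP, at 0.0587 FPKM in WT_ES and 1.62 in WT_NP. Dppa3, a factor that interferes with Uhrf1 and so with copying of methylation, was higher in the knockout on both days. Its level was 83.4 FPKM in DKO_ES against 22.4 in WT_ES, a 3.93-fold difference. At day 6 it was 16.6 in DKO_NP against 2.09 in WT_NP, a 5.87-fold difference. Of this list 1 of 14 genes was at least 2-fold higher in DKO_ES and 3 of 15 in DKO_NP, and none was lower.

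Tdg was the lowest or next to lowest of the 7 genes in each library and the least certain. Its row stood at 7.77 FPKM in WT_ES against 2.56 in WT_NP, with 2.96 in DKO_ES against 3.88 in DKO_NP. WT_ES was the highest of the 4, and after scaling the counting intervals of DKO_NP and WT_NP overlapped. Tdg was 2.49-fold lower in DKO_ES than in WT_ES (2.06 to 3.02), and 1.06% of genes had a lower log2 ratio than its -1.03. With differentiation it was 1.55-fold lower in the wild type (1.33 to 1.80) and 1.81-fold higher in the knockout (1.49 to 2.20). Between the NPC libraries its fold of 1.12 had an interval holding 1 (0.961 to 1.31). The difference of its differentiation log2 ratios, DKO minus WT, was 1.17, the 1 member past 1 in size after scaling with a pseudocount of 1; with a pseudocount of 5 it was 0.64.

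Reads of Tdg cannot be placed with certainty. Of the words of 50 bases (the read length) in its longest GENCODE M21 transcript, 66.3% also occur in transcripts of other genes, against 18.9% for Uhrf1, 0.773% for Hells, 0.014% for Tet1 and none for Dnmt1, Tet2 and Tet3. The longest overlaps were with the processed pseudogenes Tdg-ps on chromosome 15 (1636 words), Gm9855 on chromosome 10 (876) and Gm5597 on chromosome 7 (832). Gm9855 has a row of its own in the deposited table, with 58.5 FPKM in WT_ES against 29.6 in WT_NP, with 47.6 in DKO_ES against 50.7 in DKO_NP. It thus stood 7.53 to 16.1 times higher per length than Tdg in every library, and 76.5% of its own 50-base words occur in Tdg transcripts. With the approximate reads of both rows summed, DKO_ES was 1.37-fold lower than WT_ES (1.26 to 1.49) and no longer at 2-fold. Tdg supplied 28.0% of the summed reads in WT_ES and 15.4% in DKO_ES, so the sum mostly follows Gm9855. Tdg-ps and Gm5597 were not in the sum, and its intervals do not cover the placing of reads. The summed fold of WT_NP over WT_ES was 0.897 (0.833 to 0.965) and that of DKO_NP over DKO_ES was 1.52 (1.41 to 1.64). These are log2 folds of -0.16 and 0.60, less than 1 apart, so the call on the difference between genotypes is lost as well. How the authors placed reads with several matches is not given in the sources used here, so neither row alone measures Tdg. Uhrf1 shares 638 words with the pseudogene Gm5648 on chromosome X, which was not analysed here.

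**Figure D5:**
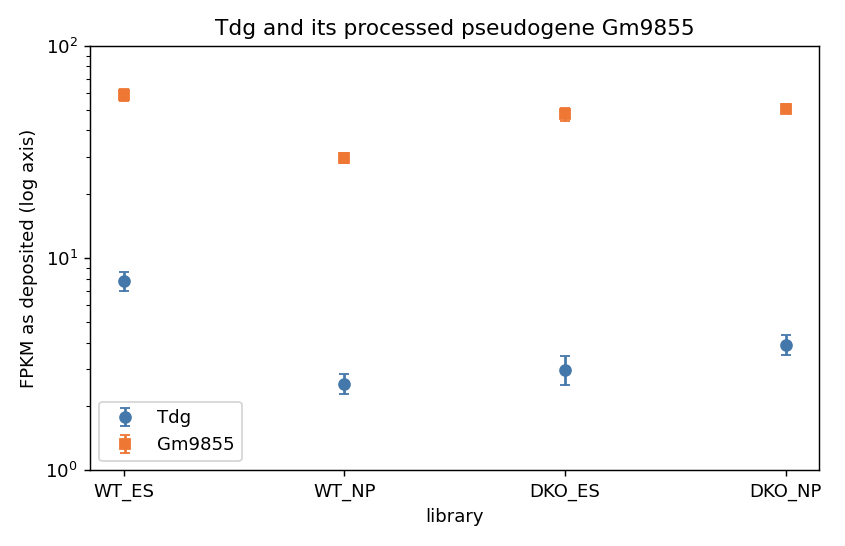
FPKM as deposited (log axis) of Tdg and of its processed pseudogene Gm9855 in the 4 libraries, with 95% counting limits. The pseudogene row lies above the Tdg row in each library, from 29.6 to 58.5 FPKM against 2.56 to 7.77.

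Other genes of excision repair and cytosine deamination differed in both directions. Of 17 compared, 3 were past 2-fold downward and 1 upward in WT_NP against WT_ES (median -0.23 after scaling, -1.17 as deposited and 0.04 with housekeeping scaling), and 5 were lower and 1 higher in DKO_NP against DKO_ES (median -0.31). Apobec1, an RNA-editing deaminase of the family proposed to act on modified cytosine, stood at 11.4 FPKM in WT_ES against 0.398 in WT_NP, with 7.95 in DKO_ES against 0.297 in DKO_NP. Parp1, the poly(ADP-ribose) polymerase that senses strand breaks, stood at 353, 72.0, 387 and 129.5 FPKM, and the uracil glycosylase gene Ung at 71.0, 16.2, 76.4 and 28.2. Smug1, another glycosylase, had 13.6 FPKM in DKO_NP against 7.10 in DKO_ES, a 2.64-fold higher level after scaling. Neil3, a glycosylase of dividing cells, had 9.97 FPKM in WT_NP against 7.04 in WT_ES, a 2.78-fold higher level after scaling. Between the ES cell libraries none of the 17 reached 2-fold, and between the NPC libraries Neil2 alone of 16 did, lower in DKO_NP at 1.39 FPKM against 3.53.

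The members were also compared with all other genes by their profile over the 4 libraries, as the Euclidean distance between centred log2 values of 8925 genes with a mean of at least 5 FPKM. With 4 libraries near matches are common, and the distances are a description. Nearest to Dnmt1 were B3galnt1 (distance 0.029), Gna12 (0.044) and Supt5h (0.056), nearest to Uhrf1 Snhg8 (0.042), Cct8 (0.060) and Ccdc124 (0.068), and nearest to Hells Ppcs (0.059), Cox8a (0.069) and Dohh (0.072). For Tet1 the nearest genes lay farther off, namely the kinase gene Sgk1 (0.29), Nphs1 (0.31) and Epb4.9 (0.37). Sgk1 stood at 199.8 FPKM in WT_ES against 9.11 in WT_NP, with 173 in DKO_ES against 8.03 in DKO_NP. Tet2 was nearest to Kank2 (0.14), Tagln2 (0.14) and Dhdh (0.17), Tet3 to Gpsm1 (0.062), Casd1 (0.14) and Lpar6 (0.17), and Tdg to Phlda3 (0.15), Hist1h3a (0.24) and Wdr41 (0.24). Among the members themselves the closest pair was Uhrf1 and Hells (0.53), although 1397 genes lay nearer to Uhrf1, and the farthest was Tet1 and Tet3 (5.31). For each pair of members, at least 504 other genes lay nearer to one of them.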

How the data were processed

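RNA was measured in 4 libraries, 1 per group, from rRNA-depleted total RNA with single-end reads of 50 cycles, per the labels' protocols. The authors deposited FPKM for 23235 symbols; 18 blank rows were left out. Bowtie, TopHat and the build mm9 are named in the submitters' processing notes; versions, the FPKM program and its annotation were not given in the sources used here. The members and gene lists were chosen with earlier results of these data known, and the motif words after the levels were seen. Scaling divided each library by a factor, the median quotient of its FPKM and the per-gene geometric mean, taken from the 11334 genes that reach 1 FPKM in every library. Log2 ratios used a pseudocount of 1 FPKM and genes with at least 1 FPKM in one library or the other, and 2-fold was counted. No test was run.

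Depth was read from the steps of low FPKM values, of which 1189 of 1819 genes (65.4%) came out whole in all 4 libraries within 0.04 read. With GENCODE M21 longest transcripts (GRCm38) this gave denominators of about 13.6, 35.8, 14.8 and 24.8 M reads for WT_ES, WT_NP, DKO_ES, then DKO_NP. Read numbers and intervals are therefore approximate, and PCR copies are not independent molecules. No exon or gene coordinates are printed, since the files use mm9 and the annotation GRCm38; promoter windows carry RefSeq's GRCm38.p6 positions. Named genes were the 7 members, Dnmt3a, Dnmt3b and Dnmt3l. Besides these, up to 4 genes per list with the largest ratios at or above 5 FPKM were named, and the 3 nearest profiles per member. Where the rule did not name them in that comparison, further genes were added after values were seen. These were Ogt, Pcna, Idh1, Idh2, Idh3a, Cxxc4, Neil2, Neil3, Gm9855 and the partners named as also lowest or as highest in WT_NP. Scripts ran in Python 3.11.15 with SciPy 1.17.1. Only the scaling and the 2-fold call were tried on simulated data, which held counting noise and no variation between cultures.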

Additional observations from a re-analysis of the deposited data

Results flagged for a closer look

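Opposite directions under the same contrast marked 3 results, and in no case was the difference tested, since each group holds 1 library. Dnmt1 had a log2 ratio of -0.40 with differentiation in the wild type and 0.24 in the knockout after scaling; as deposited both were below 0, at -1.36 and -0.22. Tdg had -0.52 in the wild type and 0.65 in the knockout, and its row shares most of its 50-base words with pseudogenes. Tet1 had 0.029 in DKO_ES against WT_ES and -0.82 in DKO_NP against WT_NP; as deposited both were below 0, at -0.046 and -0.41.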

How the results depend on the processing

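No paired analysis was possible because each group holds 1 library. Counts of the 7 genes moved with the settings as follows. As deposited, without scaling, 6 were at least 2-fold lower in WT_NP against WT_ES, as were 5876 of all 14086 genes compared. In DKO_NP against WT_NP 3 were higher, as were 1382 of all 13601 genes. A difference of differentiation ratios of 1 or more was reached by 3. Its share over all genes was not taken as deposited, so this count has no background to be read against. The median gene as deposited had a log2 ratio of -0.82 in WT_NP against WT_ES and -0.43 in DKO_NP against DKO_ES. With a threshold of 1.5-fold 4 were lower in WT_NP against WT_ES, as were 3257 of all 14086 genes. In DKO_NP against DKO_ES 2 were higher, as were 3069 of 14050 genes. In DKO_NP against WT_NP 3 were higher and 2 lower, beside 1621 and 2314 of 13601 genes. For the difference of differentiation ratios 3 were higher and 1 lower. No share over all genes was taken at this threshold, so these counts too have no background to be read against. Housekeeping scaling, a pseudocount of 0.1 and scaling over genes at 5 FPKM each brought 1 gene, Tet2, to 2-fold lower in DKO_NP against WT_NP. With a pseudocount of 5 the count lower in DKO_ES against WT_ES was 0 and that of differences of 1 or more was 0, since Tdg is low. As shares of approximate reads rather than FPKM, Tet1 made up 80.1% in WT_ES against 33.8% in WT_NP, with 84.6% in DKO_ES against 32.5% in DKO_NP. In the same order of libraries Tet2 made up 18.3%, 34.7%, 13.9% and 30.2%, and Tet3 1.59%, 31.5%, 1.49% and 37.3%. By reads the 3 genes were thus near equal in WT_NP, and in DKO_NP Tet3 was highest and Tet1 passed Tet2. Among all genes, counts higher and lower at a pseudocount of 5 were 953 and 854 in WT_NP against WT_ES (main 2287 and 1592), 675 and 806 in DKO_NP against DKO_ES (1656 and 1570), 158 and 88 in DKO_ES against WT_ES (348 and 156) and 236 and 413 in DKO_NP against WT_NP (648 and 1087). At 1.5-fold they were 3796 and 3257, 3069 and 3136, 951 and 595, and 1621 and 2314 in the same order, and at a pseudocount of 0.1 DKO_ES against WT_ES had 639 and 334. Of 35 log2 values of single members none past 2-fold changed sign under any planned setting; 4 smaller ones did as deposited and 2 with housekeeping scaling. Depth limits Tdg most, at about 154 reads in DKO_ES. The sum of Tdg and Gm9855 was chosen after seeing the data.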

Other observations

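Uhrf2, the close relative of Uhrf1 that does not replace it in recruiting Dnmt1, did not follow it. It stood at 33.9 FPKM in WT_ES against 35.9 in WT_NP, with 30.5 in DKO_ES against 38.7 in DKO_NP, and after scaling WT_NP was 2.08-fold above WT_ES, while Uhrf1 was 1.89-fold lower.

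Dnmt1 and Dnmt3b stood at the same level in WT_ES (FPKM ratio 0.9998, interval 0.972 to 1.03). In WT_NP Dnmt1 was 5.40 times as high as Dnmt3b per length (5.12 to 5.70). Dnmt3l, the cofactor of the de novo enzymes, stood at 148 FPKM in WT_ES against 1.73 in WT_NP, with 250.2 in DKO_ES against 12.4 in DKO_NP, so it shared with Tet1 the wide gap between days but not the lower level in DKO_NP than in WT_NP.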
